A study of Sus scrofa with 31 samples.

Results

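THBS1 encodes thrombospondin 1, a secreted matrix protein known, among other roles, for releasing TGF-beta from its latent complex. The 5 genes described here are THBS1, the ligand gene TGFB1, the genes of both signalling receptors, TGFBR1 and TGFBR2, and SMAD3, which carries the signal from the receptors to the nucleus. They were taken by name from the 31907 genes of a pig RNA sequencing study, and each was matched to its Ensembl identifier through the gene name columns of the study's supplementary tables. All 5 were among the 11633 genes that passed the filter on low values (a read count above 10 CPM, which is scaled to a common library size, in every sample of some group), but THBS1 passed it only through alveolar macrophages.

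TGF-beta is secreted bound to a latency peptide and is stored in the matrix or on cell surfaces until an integrin, a protease or a thrombospondin frees it. The free ligand binds the type II receptor (TGFBR2), which recruits and phosphorylates the type I receptor (TGFBR1), and SMAD2 and SMAD3 then enter the nucleus with SMAD4. In the brain the pathway is known as a signal that microglia, the resident macrophages of the nervous tissue, need in order to keep their mature identity.

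Microglia had been sorted from minced cerebellum, frontal cortex and hippocampus as CD11b-high cells with low CD45 (n = 8 samples for each region). Macrophages were F4/80-positive, CD163-low cells from lung lavage (n = 3), and whole hippocampus was sequenced without sorting (n = 4). All donors were uncastrated male crossbred piglets (Large White, Landrace and Duroc) in the fourth week of life, 1 from each litter, killed under anaesthesia after sedated brain imaging. Their litters were born in standard commercial housing or in freer pens, and the labels do not say which pig came from which. The tag numbers in the labels name 15 pigs, of which 9 gave more than 1 sample, so samples with the same number came from the same animal.

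Each sample held 18438494 to 43477403 reads assigned to genes. Levels are given as CPM on library sizes normalized by TMM (trimmed mean of M values), or as CPM per kilobase of exon where genes are compared with each other. The microglia marker list (5 genes) summed to 1964 to 3776 CPM in the 24 microglia samples and to 50.6 to 75.4 CPM in alveolar macrophages. Of the alveolar macrophage markers, FABP4 and MARCO were at 0 reads in the macrophages, and MARCO was at 0 in every other group too. PPARG had 30.0 ± 24.5 CPM and SIGLEC1 46.0 ± 6.53 CPM in the macrophages (SD, n = 3). Their means in the microglia groups were 4.76 to 8.54 CPM and 14.6 to 24.6 CPM. ADGRE1, the F4/80 gene used in the sort, had 95.9 ± 43.9 CPM in the macrophages (SD, n = 3) and CD163 had 411 ± 154 CPM (SD, n = 3). The macrophage samples also held lymphocyte markers (8 genes, 900 to 1496 CPM summed, against 68.4 to 205 CPM in microglia) and lung epithelium markers (4 genes, 29.9 to 143 CPM). Which part of a macrophage value below came from other cells was not tested.

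The promoters of THBS1 and TGFBR2, the genes furthest apart in fold change between hippocampal microglia and tissue, are shown as the 250 bases before the annotated start of each gene (RefSeq annotation of Sscrofa11.1), with capitals marking matches on either strand to a GC box (GGGCGG), the core site of the myeloid factor PU.1 (GAGGAA) or an AP-1 site (TGANTCA). THBS1 lies on chromosome 1 from 131728781 to 131746098 (minus strand, ENSSSCG00000004789) and its window is chr1:131746099-131746348. TGFBR2 lies on chromosome 13 from 16784370 to 16875828 (plus strand, ENSSSCG00000011226) and its window is chr13:16784120-16784369.
THBS1: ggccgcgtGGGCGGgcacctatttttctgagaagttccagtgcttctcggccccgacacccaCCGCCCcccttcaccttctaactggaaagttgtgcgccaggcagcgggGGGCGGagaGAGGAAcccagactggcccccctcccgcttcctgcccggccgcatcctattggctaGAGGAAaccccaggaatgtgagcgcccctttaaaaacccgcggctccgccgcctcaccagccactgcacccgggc
TGFBR2: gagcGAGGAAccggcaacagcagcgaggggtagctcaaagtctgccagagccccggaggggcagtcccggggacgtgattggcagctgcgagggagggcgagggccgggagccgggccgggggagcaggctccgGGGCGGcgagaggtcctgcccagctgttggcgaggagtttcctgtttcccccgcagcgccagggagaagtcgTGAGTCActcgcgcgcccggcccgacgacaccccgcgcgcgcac
The THBS1 window held 3 GC boxes and 2 PU.1 cores, at 131 and 75 bases before the start, and its GC content was 66.0%. The TGFBR2 window held 1 GC box, 1 PU.1 core at 246 bases and 1 AP-1 match at 44 bases before the start, and its GC content was 72.8%. Of 19501 promoter windows of the same length, 46.0% held a GC box, 22.0% a PU.1 core and 5.23% an AP-1 match, and the median GC content was 57.6%. A match is a run of letters and was not tested as a binding site. No protein sequences were used here.

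Across the 5 groups the genes followed 3 patterns. THBS1 was high in alveolar macrophages, low in hippocampal tissue and near the counting limit in microglia. TGFB1 was at like levels in microglia and macrophages and more than 10 times lower in tissue. TGFBR1, TGFBR2 and SMAD3 were highest in microglia, intermediate in macrophages and lowest in tissue. Whether ranges overlapped is given below as a description. The share of all tested genes with ranges apart was not computed, so ranges apart are not shown to be particular to these genes.

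**Figure D1:**
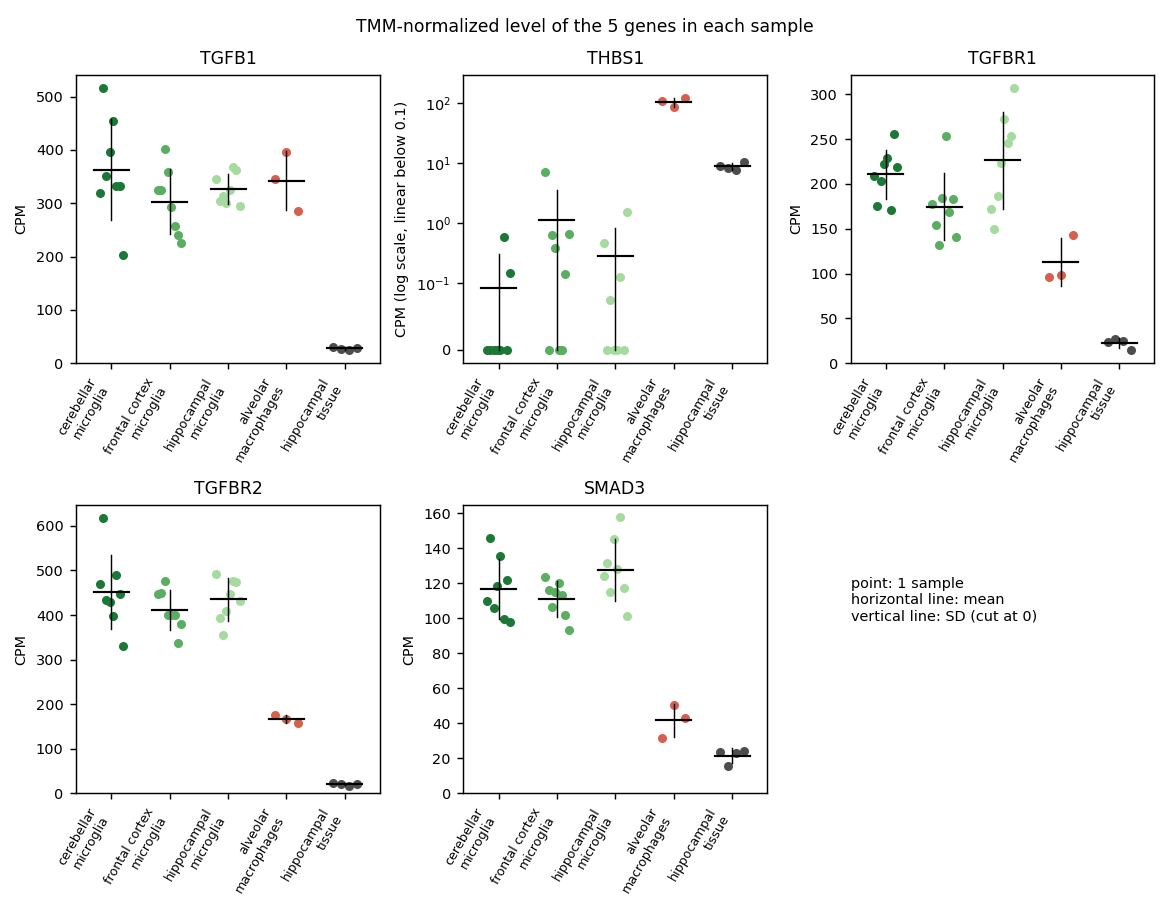
Level of each of the 5 genes in each of the 31 samples, in TMM-normalized CPM, with 1 point per sample, a horizontal line at the group mean and a vertical line of ± 1 SD cut at 0. The THBS1 axis is logarithmic above 0.1 CPM and linear below it, and the other axes are linear from 0. All 3 macrophage samples lie at 87.0 CPM of THBS1 or above, while 13 of the 24 microglia samples lie at 0.

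THBS1 had 107, 87.0 and 122 CPM in the alveolar macrophages of pigs 12821, 12829 and 12984. In hippocampal tissue it had 8.89, 8.44, 7.56 and 10.5 CPM in pigs 12821, 12829, 12847 and 12872. Macrophages and tissue therefore did not overlap. In cerebellar microglia 6 of 8 samples had 0 reads and the others had 3 and 12 reads, the highest at 0.592 CPM. In frontal cortex microglia 3 of 8 samples had 0 reads, the median was 0.262 CPM and the highest sample, pig 12599, had 163 reads (7.10 CPM). In hippocampal microglia 4 of 8 samples had 0 reads, the median was 0.0374 CPM and the highest sample, pig 12872, had 42 reads (1.56 CPM). At these depths 0 reads allow up to 0.0763 to 0.150 CPM in a microglia sample (the level of 3 reads), which covers counting error only. All 24 microglia samples lay below every macrophage sample, and the hippocampal microglia lay below every tissue sample. Of the frontal cortex samples, that of pig 12599 had the highest oligodendrocyte markers (1850 CPM summed, against 165 to 1229 CPM). It also had the highest neuronal markers (117 CPM, against 5.78 to 59.9 CPM in the other 7). Its border macrophage markers (CD163, MRC1 and LYVE1) summed to 23.8 CPM, where the group median was 3.54 CPM. The frontal cortex sample of pig 12891 came next in oligodendrocyte and neuronal markers (1229 and 59.9 CPM). That sample had the highest border macrophage markers (32.4 CPM) and 3 reads of THBS1. The part of such cells in the THBS1 reads was not tested.

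TGFB1 (ENSSSCG00000003017, chromosome 6, 49332169 to 49348642, minus strand) encodes the best-known of the TGF-beta ligands. It had a lowest, median and highest level of 204, 342 and 517 CPM in cerebellar, 224, 309 and 402 CPM in frontal cortex and 295, 319 and 368 CPM in hippocampal microglia. The macrophages had 346, 396 and 285 CPM and the tissue samples 30.8, 26.5, 24.7 and 29.3 CPM, in the order of pigs given for THBS1. The macrophages fell inside the range of the microglia, and every sorted sample lay above every tissue sample.

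TGFBR1 (ENSSSCG00000005382, chromosome 1, 240842735 to 240918267, plus strand) encodes the type I receptor. Its lowest, median and highest levels were 171, 214 and 255 CPM in cerebellar, 132, 173 and 253 CPM in frontal cortex and 149, 235 and 308 CPM in hippocampal microglia. The macrophages had 96.4, 98.2 and 143 CPM and the tissue samples 23.3, 27.1, 24.5 and 15.1 CPM. The macrophage sample of pig 12984 overlapped the lowest frontal cortex microglia, while hippocampal microglia and macrophages did not overlap.

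TGFBR2 had 330, 440 and 617 CPM (lowest, median and highest) in cerebellar, 337, 401 and 477 CPM in frontal cortex and 354, 439 and 492 CPM in hippocampal microglia. The macrophages had 175, 168 and 157 CPM and the tissue samples 24.4, 20.4, 17.1 and 21.7 CPM. Microglia, macrophages and tissue formed 3 ranges that did not overlap.

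SMAD3 (ENSSSCG00000004952, chromosome 1, 164998457 to 165124455, plus strand) encodes a receptor-regulated transcription factor. Its lowest, median and highest levels were 98.0, 114 and 146 CPM in cerebellar, 93.1, 114 and 123 CPM in frontal cortex and 101, 126 and 158 CPM in hippocampal microglia. The macrophages had 31.6, 50.5 and 42.8 CPM and the tissue samples 23.9, 15.4, 23.3 and 23.9 CPM. Again the 3 kinds of sample did not overlap, although the lowest macrophage sample was close to the tissue samples.

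Per kilobase of exon, TGFB1 and TGFBR2 were among the more abundant transcripts of microglia. In hippocampal microglia TGFB1 had 118 ± 10.4, TGFBR2 101 ± 10.9, TGFBR1 38.4 ± 9.15, SMAD3 21.3 ± 2.95 and THBS1 0.0482 ± 0.0935 CPM per kilobase (SD, n = 8). Of the 9358 tested genes with an exon length, 2.13% had a higher mean than TGFB1 there, 2.64% than TGFBR2 and 95.4% than THBS1. In alveolar macrophages THBS1 (18.2 ± 3.06 CPM per kilobase, SD, n = 3) stood at about the level of TGFBR1 (19.1 ± 4.52 CPM per kilobase, SD, n = 3). In hippocampal tissue TGFB1 had 10.1 ± 0.983 CPM per kilobase and the other 4 had 1.53 to 4.84 CPM per kilobase (n = 4).

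Microglia were compared with alveolar macrophages to ask how brain macrophages differ from those of another organ. THBS1 was lower in microglia by the quasi-likelihood test of edgeR (log2 fold change −8.44 ± 0.978, SE, Benjamini-Hochberg adjusted p = 1.89e-08). The size of this fold rests on few reads in microglia, and without the frontal cortex sample of pig 12599 it became −9.13. TGFBR2 was 2.59-fold higher in microglia (log2 fold change 1.37 ± 0.136, SE) and SMAD3 2.84-fold higher (1.51 ± 0.152, SE), with edgeR adjusted p-values of 6.63e-10 and 1.04e-09. Both lay under the 3-fold threshold of this comparison and were not called. TGFBR1 was 1.80-fold higher (0.85 ± 0.194, SE, edgeR adjusted p = 0.000455) and was not called either. TGFB1 differed by less than the SE of the difference (−0.05 ± 0.164, SE, edgeR adjusted p = 0.801). With the calls defined by an adjusted p under 0.01 and a fold over 3, 1 of the 5 genes was called lower and 0 higher, beside 10.1% lower and 12.2% higher among all genes tested. The call of THBS1 is a description, because the gene passed the filter only through the macrophages, where it was high, and its identifier came from the study's own lists of genes that differ in this contrast. The 3 genes below the fold threshold were higher at an unadjusted p under 0.05 by edgeR, limma-voom and DESeq2 alike, and none of these tools called them. SMAD3 passed the fold threshold with the pig as a replicate block (1.62, edgeR adjusted p = 7.12e-05) and without the macrophage sample of pig 12829 (1.67).

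Platelets also store thrombospondin 1, and 1 of 2 platelet markers was high in the macrophage samples. The 2 platelet markers with an identifier, PPBP and GP9, summed to 23.7 to 87.6 CPM in macrophages, 1.67 to 10.8 CPM in microglia and 2.36 to 2.92 CPM in tissue. The high sum was PPBP alone (43.6 ± 36.2 CPM in macrophages, SD, n = 3), while GP9 had 2.82 ± 0.677 CPM there (SD, n = 3) and means of 3.60 to 4.82 CPM in the 3 microglia groups. Monocyte or neutrophil markers (6 genes) summed to 635 to 1213 CPM in macrophages, 55.1 to 100 CPM in microglia and 320 to 412 CPM in tissue. The part of either cell type in the THBS1 reads was not tested.

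**Figure D2:**
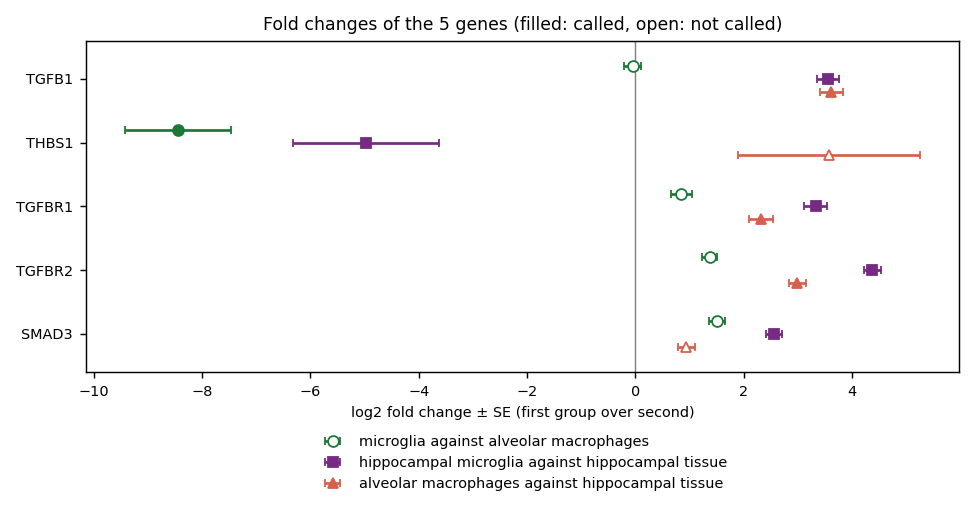
Log2 fold changes of the 5 genes in 3 comparisons, with bars of ± 1 SE from edgeR. Filled symbols passed both the adjusted p and the fold threshold of their comparison, and open symbols did not. THBS1 is to the left of 0 in both comparisons of microglia, the other genes are at or to the right of 0, and TGFB1 is at 0 only between microglia and macrophages.

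Hippocampal microglia were compared with hippocampal tissue to find transcripts carried by microglia rather than by the other cells of the same region. TGFBR2 had the largest fold change, 4.38 ± 0.153 on the log2 scale (SE, edgeR adjusted p = 6.47e-20), followed by TGFB1 (3.55 ± 0.200), TGFBR1 (3.33 ± 0.216) and SMAD3 (2.56 ± 0.152). These 4 were called higher at a fold over 4, beside 11.7% of all genes tested, but their identifiers came from the study's own list of genes higher in this contrast, so the count is not independent evidence. THBS1 was lower in microglia (−4.97 ± 1.34, SE, edgeR adjusted p = 0.00152), as were 22.1% of all genes tested. Without the hippocampal microglia of pig 12872 its fold change became −6.49, and with the pig as a replicate block it was −5.33 with an edgeR adjusted p of 0.0144, which misses the threshold of 0.01. In bulk tissue, fewer cells of a type and less RNA per cell cannot be told apart.

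The 4 pigs that gave both samples allowed the comparison within an animal. TGFB1, TGFBR1, TGFBR2 and SMAD3 were each higher in microglia in 4 of 4 pigs, and THBS1 was lower in 4 of 4. The first 4 genes had their identifiers from the study's list for this contrast, made from these same samples. Their direction within pigs is therefore not independent evidence, and the share of all genes with the same direction in 4 of 4 was not computed. The differences in log2 CPM ranged from 4.19 to 4.79 for TGFBR2, from 3.33 to 3.87 for TGFB1, from 3.18 to 4.34 for TGFBR1 and from 2.08 to 3.35 for SMAD3. Those for THBS1 ranged from −7.03 to −2.70, with pig 12872 nearest to 0.

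**Figure D3:**
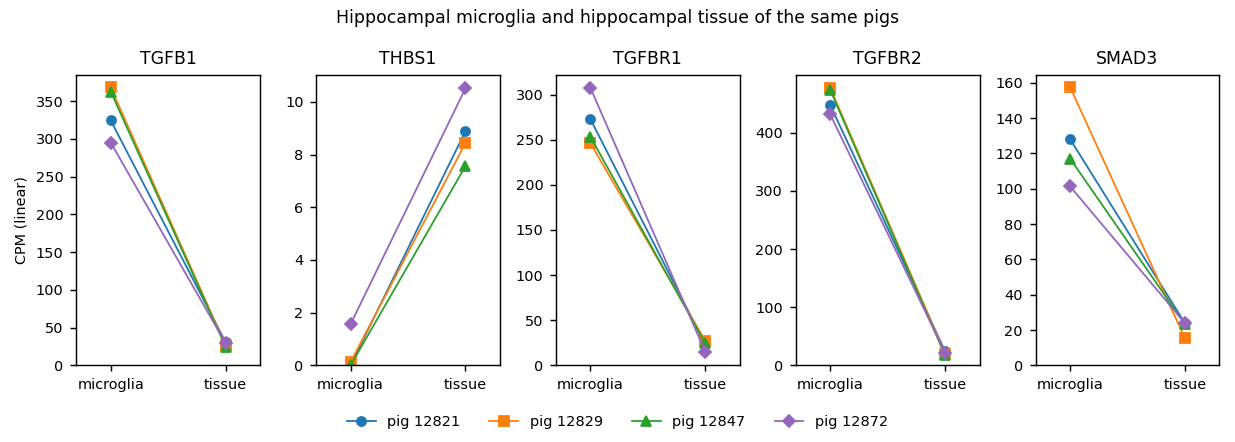
Levels of the 5 genes in hippocampal microglia and hippocampal tissue of the 4 pigs that gave both, in TMM-normalized CPM on linear axes, with a line joining the samples of 1 pig. All lines fall from microglia to tissue except those of THBS1, which rise from at most 1.56 CPM to between 7.56 and 10.5 CPM.

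Alveolar macrophages were also set against hippocampal tissue. TGFB1 (log2 fold change 3.62), TGFBR2 (3.00) and TGFBR1 (2.32) were called higher in macrophages at a fold over 3, beside 14.6% of all genes tested. SMAD3 was 1.92-fold higher by the ratio of mean CPM and was not called (0.94 on the log2 scale, edgeR adjusted p = 1.4e-05). THBS1 was 11.9-fold higher by the ratio of mean CPM, but it was not called in the model of all 5 groups (3.57 ± 1.68, SE, edgeR adjusted p = 0.0603). When only these 2 groups were fitted, the SE was 0.174 and the edgeR adjusted p was 1.43e-06, and limma-voom called it on all groups (adjusted p = 8.22e-13). The spread of THBS1 in the full model was shared with the microglia, whose coefficient of variation over 24 samples was 293%, against 16.8% in macrophages and 14.0% in tissue. In the 2 pigs with both samples, THBS1 was 3.36 and 3.58 higher in macrophages in log2 CPM.

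None of the 5 genes was called between microglia of the cerebellum, frontal cortex and hippocampus, where edgeR's F test called 2.03% of all genes tested at an adjusted p under 0.01. Of the 5, 2 had an unadjusted p under 0.05 (THBS1 and TGFBR1), and limma-voom and DESeq2 called 0 as well. In pairs of regions edgeR again called 0 of the 5, beside 0.894% of all genes higher and 0.971% lower in the cerebellum than in the frontal cortex. Higher in the frontal cortex than in the hippocampus were 0.189% and lower 0.129%, and for the cerebellum against the hippocampus these shares were 0.438% and 0.163%. The adjusted p-values from edgeR were 0.12 for THBS1, 0.182 for TGFBR1, 0.375 for TGFB1, 0.412 for SMAD3 and 0.618 for TGFBR2. For TGFB1 the pairs of regions differed by at most 0.26 on the log2 scale, for TGFBR2 by at most 0.13 and for SMAD3 by at most 0.20. TGFBR1 differed by up to 0.38 (frontal cortex against hippocampus) and THBS1 by up to 3.62 (−3.62 ± 1.31, SE, cerebellum against frontal cortex). This THBS1 difference ran from −5.61 to −1.58 when 1 sample was left out, with −1.58 without the frontal cortex sample of pig 12599 and −5.61 without the cerebellar sample of pig 12847. Regional ranges overlapped for all 5 genes. In the 6 pigs with both cerebellar and frontal cortex microglia, TGFBR2 was higher in the cerebellum in 5. TGFB1 and TGFBR1 were each higher there in 4 and SMAD3 in 3, while THBS1 was higher in 1 and lower in 4. The share of all genes with such directions was not computed.

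TGFBR2 exceeded TGFBR1 in nearly every sample once both were divided by exon length (4316 and 5893 bases). These lengths came from RefSeq, while the reads were counted on Ensembl genes, so the size of the ratio depends on them. Before this division, tissue had mean levels of 20.9 CPM for TGFBR2 and 22.5 CPM for TGFBR1. Their ratio in microglia was 3.01 ± 0.915 for the cerebellum, 3.36 ± 0.871 for the frontal cortex and 2.74 ± 0.671 for the hippocampus (SD, n = 8 each). It was 2.48, 2.33 and 1.50 in the macrophages and 1.43, 1.03, 0.953 and 1.97 in the tissue samples. The highest tissue sample, of pig 12872, overlapped the lowest hippocampal microglia sample (1.92), which came from the same pig. The mean log2 ratio was 1.06 higher in hippocampal microglia than in tissue (exact permutation test, two-sided, p = 0.00808, adjusted over 2 comparisons p = 0.0162). This test treated all samples as independent, although all 4 tissue samples came from pigs that also gave hippocampal microglia. Within the 4 pigs with both samples the mean difference was 0.85, with 3 of 4 pigs higher in microglia, and the exact permutation p of 0.25 compares with 0.125 as the smallest that 4 pairs allow. Against macrophages the difference was 0.38 (exact permutation test, two-sided, p = 0.145). The SD of the log2 ratio was 0.337 in hippocampal microglia and 0.398 in macrophages. In the 2 pigs with both samples the difference was −0.15 and 0.18.

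**Figure D4:**
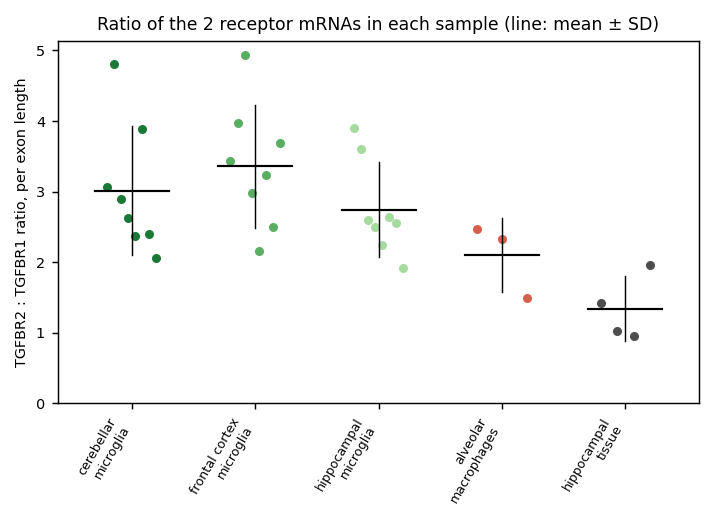
Ratio of TGFBR2 to TGFBR1 reads per exon length in each sample, with 1 point per sample, a horizontal line at the group mean and a vertical line of ± 1 SD. Microglia samples lie between 1.92 and 4.93, macrophages between 1.50 and 2.48 and tissue between 0.953 and 1.97.

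For each of the 5 genes, the tested genes with a symbol (10132 compared) were ranked by how closely their 5 group means followed it, as the root mean square difference of centred mean log2 CPM. Nearest to THBS1 were BTC (0.35), SMPDL3A (0.40) and TIGIT (0.58), all high in macrophages and near 0 in microglia. Nearest to TGFB1 were ST6GAL1 (0.09), NFKBIZ (0.11) and TOR4A (0.11). LRRK2 (0.03), TNFSF13 (0.06) and the small nucleolar RNA SNORA53 (0.08) were nearest to TGFBR1. For TGFBR2 they were IL17C (0.09), ST3GAL1 (0.09) and PRKCD (0.10), and for SMAD3 ZNF276 (0.07), FAM102B (0.08) and DRAM2 (0.09). This likeness covers 5 group means only.

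The rest of the pathway was read from a list of 67 further genes with an identifier, of which 46 passed the filter. Against macrophages, 15 of the 46 were called higher in microglia and 3 lower, beside 12.2% and 10.1% of all genes tested, with a median log2 fold change of 0.96 beside 0.06 over all genes tested. Against tissue, 9 were called higher in hippocampal microglia and 10 lower, beside 11.7% and 22.1% of all genes tested, with a median of 0.25 beside −0.08. Between macrophages and tissue, 8 were higher and 14 lower in macrophages, beside 14.6% and 20.4% of all genes tested. The median there was −0.64 beside −0.04. A gene that passed the filter only through tissue or macrophages was low in microglia by that choice. One that passed only through microglia or tissue was likewise low in macrophages. These counts, and those for the parts of the list below, are therefore a description of the tested genes. With no filter, 13 genes were lower against macrophages in place of 3. Of the ligand genes TGFB2 was the single other one tested, and it was called higher against macrophages (1.95 on the log2 scale) and lower against tissue (−2.38).

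The other 2 tested thrombospondins did not share the pattern of THBS1. THBS2, a thrombospondin of the same structural subgroup, had 388 ± 44.8 CPM in hippocampal microglia (SD, n = 8), 7.61 to 16.3 CPM in macrophages (n = 3) and 19.8 ± 3.23 CPM in tissue (SD, n = 4). It was called higher in microglia in both comparisons (log2 fold changes 5.17 ± 0.273 and 4.29 ± 0.231, SE). THBS3 was higher in microglia than in macrophages (3.90 ± 0.342, SE) and not called against tissue (0.97). CD47, a cell surface receptor for thrombospondin 1, was called in neither (−0.49 and −0.25). How reads were divided between related thrombospondin genes was not tested.

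Of the 12 tested genes of latency and activation, 4 were higher and 0 lower in microglia than in macrophages, and 3 were higher and 5 lower in hippocampal microglia than in tissue. The shares over all genes tested were 12.2% and 10.1% in the first comparison and 11.7% and 22.1% in the second. Some genes had a lower mean in microglia than in macrophages without being called. ITGB1 had 173 ± 46.7 CPM over the 24 microglia samples and 505 ± 23.5 CPM in macrophages (SD, n = 3). FURIN had 98.1 ± 25.6 and 286 ± 47.8 CPM, and ITGB8 3.27 ± 5.06 and 12.4 ± 2.48 CPM, in the same order. Transcripts for the αv and β5 integrin chains were called higher against macrophages (ITGAV 3.65 ± 0.211 and ITGB5 3.02 ± 0.208, SE), as were those of the metalloproteases MMP2 (5.35) and MMP14 (1.65), which were also called higher against tissue (2.55 and 2.10). ITGAV had 271 ± 26.5 CPM in hippocampal microglia (SD, n = 8), 22.8 ± 4.90 CPM in macrophages (SD, n = 3) and 104 ± 3.44 CPM in tissue (SD, n = 4). NRROS, which tethers latent TGF-beta 1 to the surface of microglia, was called higher against tissue (3.97 ± 0.206, SE) and not against macrophages (0.93). The latent TGF-beta binding proteins, which anchor the complex in the matrix, were lower in hippocampal microglia than in tissue for LTBP3 (−4.14 ± 0.628, SE) and LTBP4 (−5.05 ± 0.951, SE), and so was the protease gene BMP1 (−4.84). LTBP1 was called lower as well, at 0 reads in 7 of 8 hippocampal microglia samples and 18.3 to 22.4 CPM in tissue. ITGB8, the integrin chain that activates TGF-beta for microglia from neighbouring cells, was also lower (−6.74 ± 1.06, SE), at 1.59 ± 1.79 CPM (SD, n = 8) against 170 ± 41.8 CPM (SD, n = 4).

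Of the receptors beside TGFBR1 and TGFBR2, the coreceptor gene TGFBR3 was lower in hippocampal microglia than in tissue, with 0 reads in 6 of 8 samples. ACVRL1, a type I receptor known from endothelium, was called between the 3 regions by the F test (edgeR adjusted p = 1.76e-05). It was the single one called of the 46 other pathway genes tested, beside 2.03% of all genes tested. It had 13.0 ± 4.87 CPM in cerebellar, 72.8 ± 25.0 CPM in frontal cortex and 43.5 ± 22.6 CPM in hippocampal microglia (SD, n = 8 each). The cerebellum was lower than the frontal cortex (−2.48 ± 0.289, SE) and the hippocampus (−1.74 ± 0.282, SE). Endothelial markers (4 genes) summed to 2.05 to 12.7 CPM in cerebellar, 3.91 to 26.1 CPM in frontal cortex and 3.41 to 17.3 CPM in hippocampal microglia, and their part in ACVRL1 was not tested. In pairs of regions, ITGB1 (−0.58) was also called lower and SMAD7 (0.56) higher in the cerebellum than in the frontal cortex. Of the 46 genes, 1 was higher and 2 were lower in that pair, beside 0.894% and 0.971% of all genes tested. SMAD2 and SMAD4 were called in neither comparison of microglia.

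Of the 12 tested inhibitors and regulators, 2 were called higher and 1 lower against macrophages, and 2 higher and 2 lower against tissue, which is near the shares over all genes tested (12.2% and 10.1%, then 11.7% and 22.1%). Of the 4 tested target genes, 1 was higher and 2 lower against macrophages, and 2 higher and 1 lower against tissue. The inhibitory SMAD7 was called higher in microglia against tissue (3.32 ± 0.186, SE) and not against macrophages (1.50). The corepressor gene TGIF1 (2.84) and the early response gene KLF10 (3.07) followed it against tissue. TGFBI, a matrix protein gene named for its induction by TGF-beta, was higher in both comparisons (2.51 ± 0.322 against macrophages and 4.32 ± 0.331 against tissue, SE). PMEPA1, a membrane inhibitor, and SMURF1, a ubiquitin ligase, were higher against macrophages (2.51 and 2.06), and ZFYVE9, a SMAD anchor, was lower against tissue (−3.61). CCN2, another induced gene, was lower in both, and it had at most 2 reads in any hippocampal microglia sample. ID2 was lower than in macrophages (−2.33 ± 0.169, SE) and CD109, a coreceptor that limits signalling, was lower in both comparisons (−5.69 and −4.08).

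The BMP and activin branch signals through receptors and SMAD proteins of its own. Of 9 tested genes of this branch, 5 were called higher in microglia than in macrophages, beside 12.2% of all genes tested: the receptors ACVR1 (2.83 ± 0.263, SE), BMPR1A (3.87 ± 0.233, SE) and BMPR1B (4.48 ± 0.711, SE) and the transducers SMAD1 (2.77 ± 0.251, SE) and SMAD9 (4.29 ± 0.489, SE). Against hippocampal tissue 0 of 9 were called in either direction by edgeR, beside 11.7% higher and 22.1% lower over all genes tested, with log2 fold changes from −1.76 to 0.28. At an unadjusted p under 0.05, 3 of the 9 were lower in microglia (ACVR2A, BMPR1B and BMPR2), and limma-voom and DESeq2 also called 0.

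**Figure D5:**
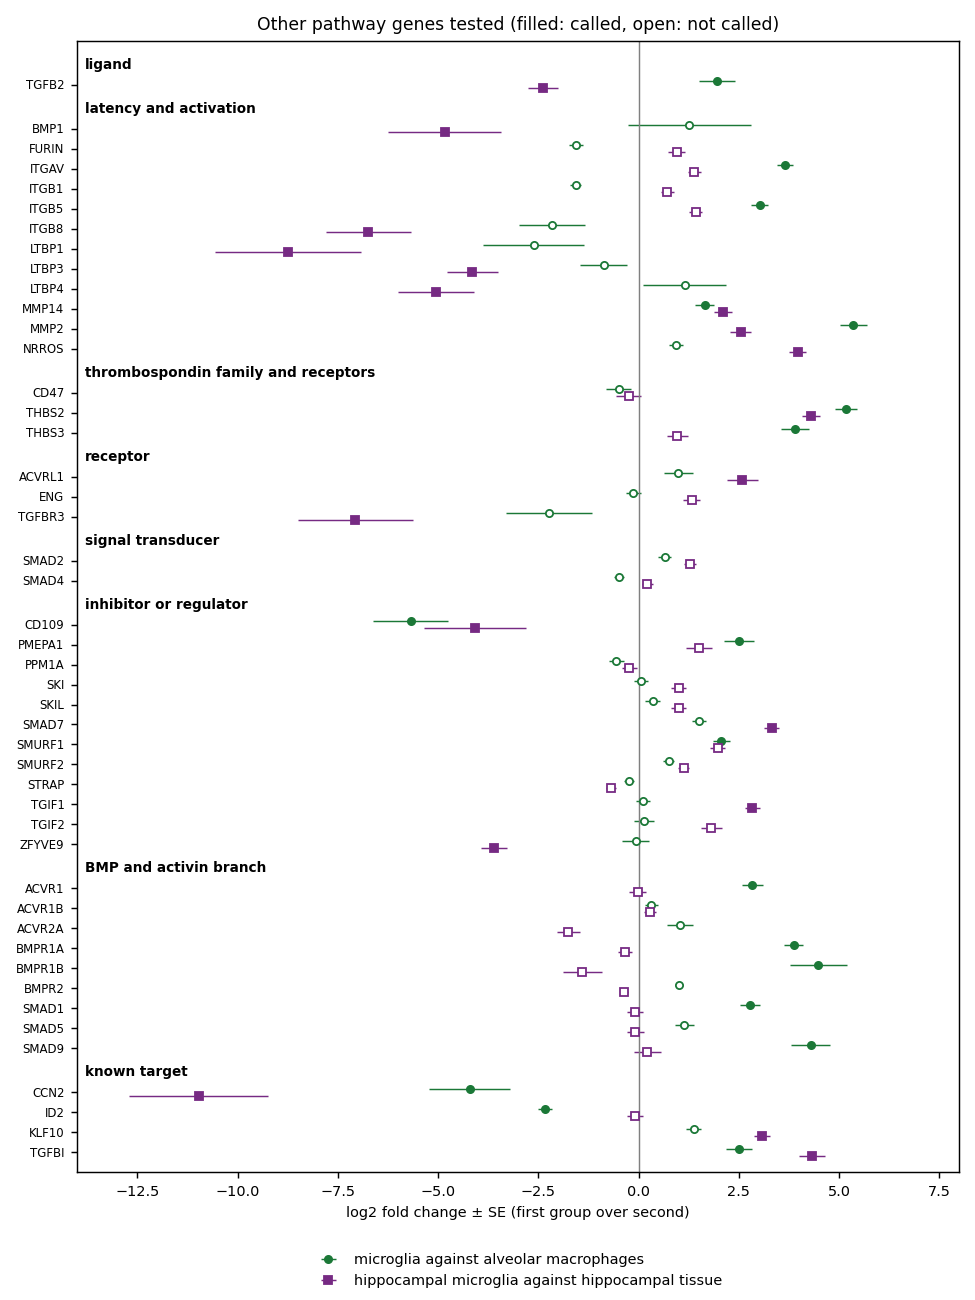
Log2 fold changes of the 46 other pathway genes that were tested, grouped by role, for microglia against alveolar macrophages (circles) and hippocampal microglia against hippocampal tissue (squares), with bars of ± 1 SE from edgeR. Filled symbols passed both thresholds. Fitted values of CCN2 and LTBP1 against tissue rest on very few reads in microglia and are no bound. All 5 filled circles of the BMP and activin branch lie right of 0, while its squares are all open.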

How the data were processed

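Total RNA of 31 pig samples was sequenced from stranded libraries as paired-end reads. Per the study's methods, BBtools trimmed the reads, Hisat2 placed them on the pig genome (Sscrofa11.1, Ensembl release 99), and StringTie gave the raw counts per gene that the authors deposited, 1 column per sample with no normalization. Aligner and counter settings were not given in the sources used here.

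A gene was tested when some group had it above 10 CPM, on library sizes before TMM, in each of its samples (11633 of 31907 genes). Counts were normalized by TMM (factors from 0.826 to 1.16) and tested by the robust quasi-likelihood method of edgeR 4.0.16 (R 4.3.3), with all 5 groups in 1 model and no pig term. P-values were adjusted over all genes tested by the Benjamini-Hochberg method. Calls needed an adjusted p under 0.01 and a fold over 3, or over 4 for hippocampal microglia against tissue, with no fold for regions. SEs came from the quasi-likelihood F statistic, and log2 CPM used a prior count of 2. The receptor ratio used counts + 0.5. Exact permutation tests were run with scipy 1.17.1 in Python 3.11.15. Exon lengths and positions came from RefSeq (Sscrofa11.1), while reads were counted on Ensembl genes, so levels per kilobase depend on that choice.

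Members and lists were chosen with earlier results of these data known. Of 74 listed pathway genes 72 had an identifier, 30 from the supplementary tables and 42 from Ensembl gene names. The named genes are the members, called pathway genes and the 3 genes most like each member. Tag numbers in the labels name the pig, so equal numbers pair samples. Over 25 same-pig pairs the deviations from group means had a mean correlation of 0.0792 (−0.374 to 0.433), against −0.00499 between different pigs. These pairs include unlike kinds of sample. The within-pig correlation that limma estimated for its replicate block was 0.205. No replicates were copies (lowest chi-square per degree of freedom 29.6). The steps were tested on simulated data. The alternatives were limma-voom (limma 3.58.1), DESeq2 1.42.0, other normalizations, filters and thresholds, only the groups compared, the pig as a replicate block and each sample left out. A fit within pigs was added for the receptor ratio after seeing the data.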

Additional observations from a re-analysis of the deposited data

Results flagged for a closer look

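SMAD3 in the hippocampal tissue of pig 12829 was 15.4 CPM, while the other 3 tissue samples had 23.3 to 23.9 CPM. It was singled out because its gap to the nearest sample took up nearly the whole range of the group. It was 1 of 24 combinations of a measure (the 5 genes or the receptor ratio) and a group of 4 to 10 samples that were examined in this way, and chance singles out about 1 in 20.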

How the results depend on the processing

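Of 1450 recomputed log2 fold changes of the 5 genes, 1420 kept direction and side of the threshold, 9 passed it, 1 missed it and 20 changed sign, all of differences near 0 or with wide errors that were called under no setting. With no factors TGFB1 against macrophages became 0.0431 and TGFBR2 in frontal cortex against hippocampus 0.0165, and with the replicate block TGFBR2 in cerebellum against hippocampus became −0.0210. Leaving out samples gave −0.114 to 0.0659 for TGFB1 against macrophages. In frontal cortex against hippocampus the ranges were −0.0797 to 3.49 for THBS1, negative only without the frontal cortex sample of pig 12599, −0.148 to 0.0368 for TGFB1 and −0.118 to 0.0398 for TGFBR2. TGFBR2 in cerebellum against hippocampus ran from −0.0240 to 0.156 and SMAD3 in cerebellum against frontal cortex from −0.00381 to 0.102. Without a fold threshold TGFBR1 (0.85), TGFBR2 (1.37) and SMAD3 (1.51) were called against macrophages, as was SMAD3 in macrophages against tissue (0.94). THBS1 in macrophages against tissue was called by limma-voom (3.57), with only the groups compared (3.55) and with a limma replicate block (3.56). With the pig as a replicate block in edgeR, SMAD3 against macrophages was called (1.62) and THBS1 in hippocampal microglia against tissue was not (−5.33), and the block changed no other call of the 5 genes. Leaving out samples gave 1.34 to 1.67 for SMAD3 against macrophages, called only without the macrophage sample of pig 12829. The receptor ratio against tissue was 0.85 within 4 pigs, past no threshold, in a comparison added after seeing the data. Against macrophages it was 0.02 within 2 pigs, added likewise, where 2 pairs cannot reach significance.

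Counts of the other pathway genes moved more. Those lower against macrophages, 3 as reported, were 7 by limma-voom, 7 with its replicate block, 7 without a fold threshold, 5 by DESeq2, 5 with RLE factors, 12 with filterByExpr and 13 with no filter. Those lower against tissue rose from 10 to 21 and 22 under these filters, which test 66 and 67 of these genes in place of 46. Without a fold threshold 23 were higher against macrophages (15 as reported), 22 against tissue (9) and 14 in macrophages against tissue (8). Between regions 1 was called as reported, 2 by limma-voom, 2 with no factors, 7 by DESeq2, 6 at an adjusted p under 0.05, 4 with the limma replicate block and 1 to 3 with a sample left out. Causes not named here were not tested. Depth limits THBS1 in microglia, where most samples were at or under 3 reads.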

Other observations

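Of the pathway genes, 21 did not pass the filter on low values and were not tested, so their levels are given as values only. SMAD6, an inhibitory SMAD of the BMP branch, had 12.4 ± 3.71 CPM over the 24 microglia samples (SD), 2.70 ± 1.56 CPM in alveolar macrophages (SD, n = 3) and 2.19 ± 0.278 CPM in hippocampal tissue (SD, n = 4). Its lowest microglia sample (6.15 CPM) lay above the highest of the others (3.60 CPM). ID3, a common target of BMP signalling, had 0 reads in 24 of 24 microglia samples, while the macrophages had 5.65 to 6.08 CPM and the tissue samples 7.02 to 11.9 CPM. ID1 had a median of 0.201 CPM in microglia and 8.41 to 9.74 CPM in tissue. BAMBI, a decoy receptor, had a median of 0.695 CPM in microglia and 11.6 to 13.9 CPM in tissue. These levels are after TMM, while the filter used CPM before TMM. LRRC32, which holds latent TGF-beta on other cells, had 0 reads in 20 of 24 microglia samples and 1.07 to 3.44 CPM in macrophages. These genes were chosen after their values were seen.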
